A study of Mus musculus with 11 samples.

Results

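Gm13341, Gm13340, Gm11410, Gm10925 and Gm10222 are nuclear pseudogenes of mitochondrial origin, and their counts were examined in hippocampal RNA of mice whose mothers had received a control diet (CD) or a diet rich in folic acid (FD) before conception. The 5 genes were chosen by name, with their FD against CD differences in these same mice in view, by matching the Ensembl identifiers of the count tables to the GENCODE M21 annotation of GRCm38. Of the 5, 4 had a row among the 38293 genes of each table, and the identifier of Gm10925 in that annotation (ENSMUSG00000100862) had none. All 4 passed the filter of at least 10 counts over the 11 mice. The genes of the mitochondrial genome itself, 37 in all, served as the comparison.

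Whole hippocampi gave the RNA, read as single-end sequences of 50 bp, of 6 CD F1 mice (3 males, 3 females) and 5 FD F1 mice (2 males, 3 females), all at 14 weeks of age. The mothers were 129S6/SvEv females and the fathers C57BL/6J males, and the offspring carried no introduced mutation. Before mating, the mothers ate food with 2.3 mg (CD) or 40 mg (FD) of folic acid per kg for 6 weeks. From mating on, every mother received the control diet, so the offspring of both groups had the same food. The labels do not say which litter a mouse came from, so p-values measure the spread between these mice whatever their litters. Total counts on genes ranged from 11737554 to 44447006 per mouse. Hippocampal neuron markers (6 genes, among them Camk2a and Prox1) summed to 7122 to 7464 CPM (counts per 1000000 counts on genes, normalized for library size) in CD mice and to 6636 to 7626 CPM in FD mice. Choroid plexus markers (6 genes) summed to 34.1 to 85.9 CPM in CD and 30.7 to 43.0 CPM in FD mice, with Kcnj13 at 0 in a CD mouse as the lowest value, and blood markers (5 genes) to 11.6 to 55.2 and 23.1 to 51.3 CPM. In whole tissue, fewer cells of a type and less RNA per cell cannot be told apart.

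Mitochondria carry a small circular genome that encodes subunits of the respiratory chain, 2 ribosomal RNAs and the tRNAs needed to translate them, and it is inherited through the mother. Over evolution, stretches of it have been copied into the chromosomes of the nucleus. Such nuclear copies come under a genetic code that differs from the mitochondrial one, are usually without a promoter of their own and collect substitutions. Young copies can be so similar to the mitochondrial genes that short reads fit both, and mitochondrial RNA is abundant in brain.

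Sequences of the 5 nuclear copies were read from the GENCODE M21 transcripts and set against the mitochondrial gene that each matched best. Gm13341 (ENSMUSG00000083863, chr2:22587291-22587962, GRCm38, minus strand, unprocessed pseudogene, 672 bp) is a copy of mt-Co2, which encodes subunit 2 of cytochrome c oxidase. It differs from mt-Co2 by 16 substitutions and lacks 12 of its bases, with 97.6% identity over the aligned bases. The 60 bases with the most substitutions are shown because they are where a read can tell the gene pair apart, with the 6 differing bases in capitals (Gm13341 at chr2:22587471-22587530, mt-Co2 at chrM:7457-7516).
Gm13341: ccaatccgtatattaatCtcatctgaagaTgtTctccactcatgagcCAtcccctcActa
mt-Co2: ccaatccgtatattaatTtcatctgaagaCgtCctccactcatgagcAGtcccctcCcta
The 12 missing bases stand in capitals in mt-Co2 (chrM:7421-7480) above the same place in Gm13341 (chr2:22587507-22587554). They are an in-frame loss, since 12 is a multiple of the codon length.
mt-Co2: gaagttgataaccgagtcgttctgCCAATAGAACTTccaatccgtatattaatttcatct
Gm13341: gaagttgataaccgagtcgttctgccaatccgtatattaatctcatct

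Gm13340 (ENSMUSG00000083563, chr2:22588103-22589647, minus strand, unprocessed pseudogene, 1545 bp) lies 141 bp from Gm13341 and is a copy of mt-Co1, which encodes the catalytic subunit 1 of cytochrome c oxidase. The copies keep the order and strand of their mitochondrial counterparts. Gm13340 has the full length of mt-Co1 with 37 substitutions (97.6% identity). Capitals mark the 4 substitutions in the 60 bases where they are densest (chr2:22589129-22589188 and chrM:5787-5846).
Gm13340: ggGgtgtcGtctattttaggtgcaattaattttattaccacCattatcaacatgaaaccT
mt-Co1: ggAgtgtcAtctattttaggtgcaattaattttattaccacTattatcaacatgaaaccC
Both genes lie in an intron of Myo3a, a myosin gene on the opposite strand, at least 7434 bp from its nearest annotated exon.

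Gm11410 (ENSMUSG00000083219, chr4:80003989-80005131, plus strand, annotated as a processed pseudogene, 1143 bp) is a copy of mt-Cytb, which encodes cytochrome b of complex III. It is the most diverged of the 5, with 82 substitutions (92.8% identity), of which 8 fall in the 60 bases shown (chr4:80004814-80004873 and chrM:14970-15029, differences in capitals).
Gm11410: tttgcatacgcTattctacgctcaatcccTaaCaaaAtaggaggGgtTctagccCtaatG
mt-Cytb: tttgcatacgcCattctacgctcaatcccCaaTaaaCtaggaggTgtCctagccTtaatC

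Gm10925 (chr1:24613974-24614651, 678 bp) and Gm10222 (ENSMUSG00000067736, chr1:24612407-24612700, 294 bp), both unprocessed pseudogenes on the minus strand, have no substitution against mt-Atp6, which encodes a subunit of ATP synthase, and mt-Nd4l, which encodes a small subunit of complex I. The first 60 bases of Gm10222 (chr1:24612641-24612700) and mt-Nd4l (chrM:9877-9936) are shown as an example of a pair that no read inside it can separate, and no base is in capitals because none differs.
Gm10222: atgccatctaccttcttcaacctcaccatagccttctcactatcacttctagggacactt
mt-Nd4l: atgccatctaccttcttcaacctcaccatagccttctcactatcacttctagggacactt

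The substitutions were mostly at the third position of the codons of the mitochondrial gene, where many changes leave the amino acid as it was. This held for 14 of 16 in Gm13341, 31 of 37 in Gm13340 and 64 of 82 in Gm11410. Transitions (A with G, or C with T) made up 13, 33 and 68 of them. Gm13341 and Gm13340 carried nearly the same density, 23.8 and 23.9 substitutions per kb, and Gm11410 carried 71.7 per kb. The longest stretch without a substitution was 173 bp in Gm13341, 148 bp in Gm13340 and 47 bp in Gm11410, shorter than a read. The map of substitutions shows the same by position. All sequences are those of the reference assembly, which was made from C57BL/6J, the strain of the fathers. Variants of the 129S6/SvEv strain, which gave the mothers and with them the mitochondria, were not read here.

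**Figure D1:**
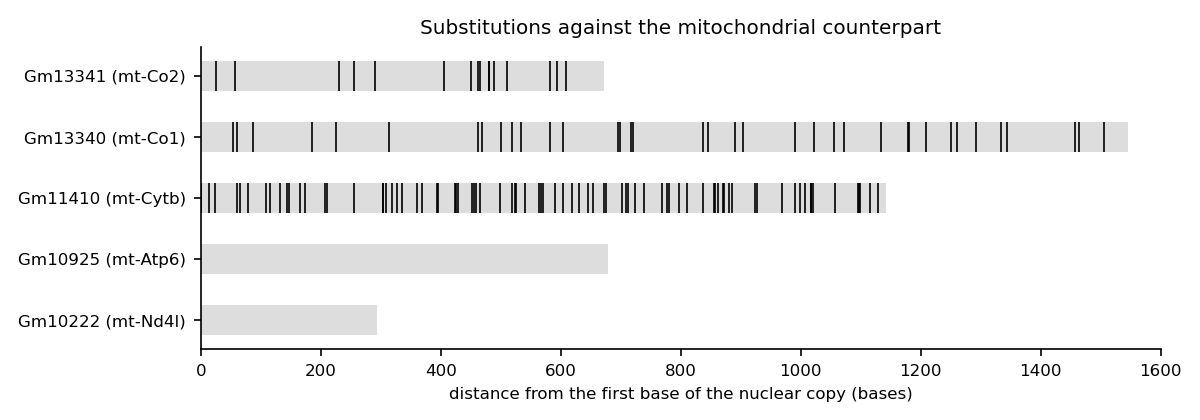
Substitutions (vertical lines) along each nuclear copy (grey bar, length in bases from its first base) against the mitochondrial gene in parentheses. Gm11410 carries 82 over its length, Gm13340 37 and Gm13341 16, while Gm10925 and Gm10222 carry none.

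Whether a 50-base read can be placed was described by cutting every gene into all its 50-base windows and asking which had an exact copy in another annotated transcript, with the mitochondrial genome rebuilt from its own transcripts. In Gm11410, all 1094 windows lacked an exact copy. In Gm13340, 1047 of 1496 windows (70.0%) lacked one, and in Gm13341 399 of 623 (64.0%), with 224 windows of Gm13341 copied exactly on the mitochondrial genome. In Gm10222 and Gm10925, 0 of 245 and 0 of 629 windows lacked a copy. Reads that aligned to several places are listed on a line of their own in the tables, at 13.7% to 16.0% of the aligned reads, and are not in the counts of any gene. The sources used here do not say whether such a read is listed once or once per place. This percentage may therefore not be a share of single reads. It did not differ between FD (14.3% ± 0.501, SD, n = 5) and CD mice (14.7% ± 0.916, SD, n = 6, two-sided exact permutation test, p = 0.5).

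Gm13341 was counted in every mouse. In CD mice, counts ranged from 20 to 90 (median 37.5) and normalized levels from 1.54 to 2.83 CPM (median 1.77). In the FD mice, 164, 108, 66, 67 and 137 counts (female 1, male 1, female 2, male 2 and female 3) gave 4.77, 5.14, 5.03, 4.74 and 5.67 CPM. The lowest FD mouse lay above the highest CD mouse, and the CD mouse closest to the FD group was female 1. The mean was 5.07 ± 0.378 CPM (SD, n = 5) in FD and 1.91 ± 0.469 CPM (SD, n = 6) in CD mice, or 1.38 as a log2 fold change (FD minus CD, standard error 0.143).

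Gm11410, the cytochrome b copy, stood far lower, with 3 to 17 counts in CD mice (median 7.5) and 29, 16, 13, 19 and 25 counts in the FD mice in the same order. Its levels were 0.256 to 0.534 CPM in CD mice (median 0.343) and 0.843, 0.762, 0.990, 1.34 and 1.04 CPM in the FD mice. The groups did not overlap for this gene either, with CD female 1 again the highest of its group. The mean was 0.995 ± 0.224 CPM (SD, n = 5) in FD and 0.372 ± 0.109 CPM (SD, n = 6) in CD mice, or 1.36 as a log2 fold change (standard error 0.238).

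Gm13340, the neighbour of Gm13341, had the most counts of the 4, 60 to 216 in CD mice (median 117.5) and 239, 151, 91, 101 and 147 in the FD mice. These were 4.76 to 6.72 CPM in CD mice (median 5.00) and 6.95, 7.19, 6.93, 7.14 and 6.09 CPM in the FD mice. The groups overlapped, since 4 FD mice lay above the highest CD mouse, female 1, and FD female 3 lay below it. The log2 fold change was 0.37 (standard error 0.105), from means of 6.86 ± 0.446 CPM (SD, n = 5) in FD and 5.28 ± 0.746 CPM (SD, n = 6) in CD mice.

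Gm10222, the copy without substitutions, was counted between 1 and 14 times in CD mice (median 5.5) and 8, 1, 2, 2 and 4 times in the FD mice, with 0.067 to 0.358 CPM and 0.048 to 0.233 CPM. The groups overlapped over most of their range, and several mice were at or below 3 counts, where a single read changes the value visibly. The log2 fold change was -0.59 (standard error 0.442).

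**Figure D2:**
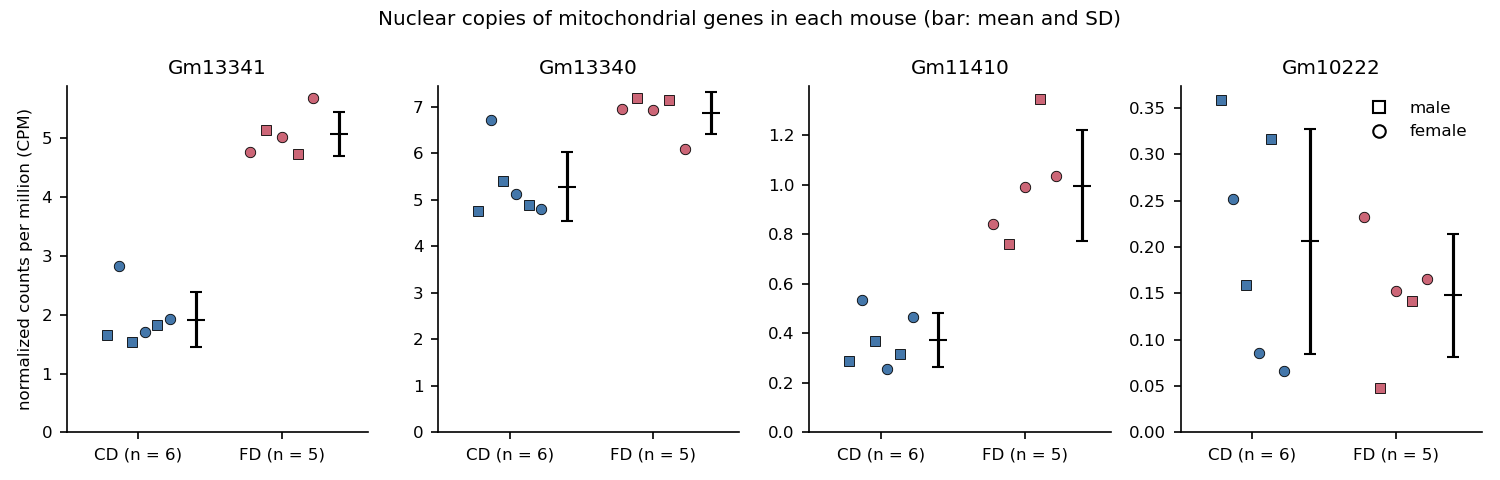
Normalized CPM of the 4 counted nuclear copies in each mouse, by group (squares, males; circles, females), with the mean and SD of each group as a bar; each panel has its own axis from 0. All 5 FD mice lie above all 6 CD mice for Gm13341 and Gm11410, 4 of 5 do for Gm13340, and the groups overlap for Gm10222. The listed copies were chosen on this contrast. All FD mice lay above all CD mice for 83 of the 20589 genes tested (0.403%).

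These differences are a description, since the genes were listed for them. In edgeR's quasi-likelihood test over 20589 genes, 14 (0.068%) passed an adjusted p of 0.1 between FD and CD mice (Benjamini-Hochberg), and 2 of the 4 nuclear copies, Gm13341 and Gm11410, were among them. With mice of the same sex and replicate number as pairs, 23 genes passed, Gm13341 among them (log2 fold change 1.35) and Gm11410 (1.26) no longer. Gm11410 also passed in 1 of the 11 fits that left out a mouse, the one without CD female 1, and Gm13341 in all 11. The FD mice all lay above the CD mice for 83 genes (0.403%), the same pair of nuclear copies included. Because the contrast chose the genes, nothing is read from these counts.

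The order of the nuclear copies changed with group once levels were set per length. This is a description, since the contrast chose the genes and no share over other gene pairs was computed. In CD mice, the mean level was 3.42 ± 0.483 CPM per kb for Gm13340, 2.85 ± 0.697 for Gm13341, 0.701 ± 0.412 for Gm10222 and 0.325 ± 0.095 for Gm11410 (SD, n = 6 each). In FD mice, it was 7.54 ± 0.563 CPM per kb for Gm13341, 4.44 ± 0.289 for Gm13340, 0.870 ± 0.196 for Gm11410 and 0.503 ± 0.226 for Gm10222 (SD, n = 5 each). Gm13341 lay above Gm13340 per kb in 0 of 6 CD mice and 5 of 5 FD mice. Across the CD mice the ranges of this pair overlapped, at 2.29 to 4.21 and 3.08 to 4.35 CPM per kb, and across the FD mice they did not, at 7.05 to 8.44 and 3.94 to 4.65. The ranges of Gm10222 and Gm11410 overlapped in both groups. In Gm10222, 0 of 245 windows lacked an exact copy, so its level per kb and its place in this order are uncertain. Counted per window without an exact copy, the pair on chromosome 2 lay closer together in CD mice, at 4.79 CPM per 1000 such windows for Gm13341 and 5.04 for Gm13340, and apart in FD mice, at 12.7 and 6.55.

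Ratios of raw counts within a library are not changed by scaling it. Gm13341 had 0.284 to 0.421 counts per count of its neighbour Gm13340 in CD mice (median 0.360). In the FD mice the ratio was 0.686, 0.715, 0.725, 0.663 and 0.932. The groups did not overlap, and FD female 3, which had the lowest Gm13340 and the highest Gm13341 level of its group, was the highest. This is a description, since the genes were chosen on this contrast and no share over all gene pairs was computed.

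The mitochondrial genes from which the copies derive showed a much wider range of counts than the copies did. Gm13341 had more counts than mt-Co2 itself in every mouse. In mt-Co2, 0 of 635 windows lacked an exact nuclear copy, while 399 of 623 windows of Gm13341 lacked a copy. Reads with several places are in the counts of no gene, so this is a ratio of counts and not of RNA levels. The mt-Co2 counts were 11 to 38 in CD mice and 23, 15, 17, 11 and 26 in the FD mice, so that Gm13341 had 1.45 to 2.90 counts per count of mt-Co2 in CD mice (median 2.07). The ratio was 7.13, 7.20, 3.88, 6.09 and 5.27 in the FD mice, all above the CD group. Gm13340 and Gm11410 stood against counterparts with many counts. Gm13340 had 485.6 to 630 counts per 1000000 counts of mt-Co1 in CD mice (median 537.3) and 708.6, 751.6, 736.1, 725 and 641.2 in the FD mice. Against mt-Co1, the groups did not overlap, while the CPM values of Gm13340 did. How often such ratios of other genes lie apart was not computed, so nothing is read from the ratios to counterparts. Gm11410 had 36.0 to 64.0 counts per 1000000 counts of mt-Cytb in CD mice (median 51.0) and 115.5, 112.9, 140.3, 187.9 and 137.3 in the FD mice, again without overlap. Gm10222 and mt-Nd4l both had few counts, with 0.2 to 2.8 counts of one per count of the other in CD mice and 1 to 2 in the 4 FD mice with a count of mt-Nd4l.

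**Figure D3:**
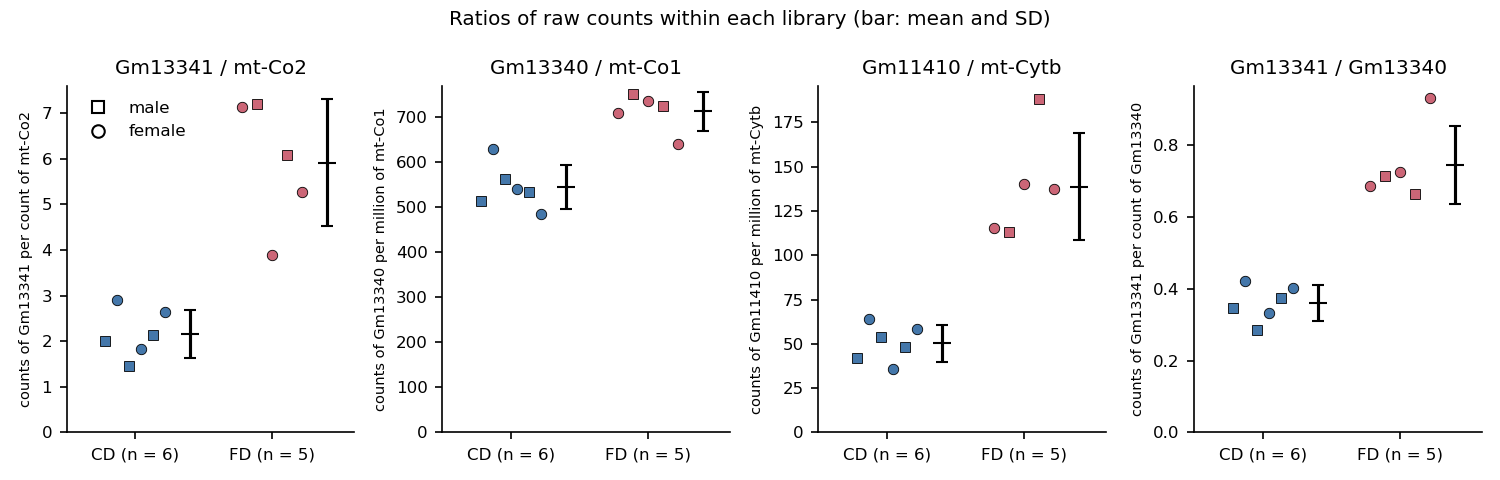
Ratios of raw counts in each mouse (squares, males; circles, females; bar, mean and SD of the group), with each panel's axis from 0. The FD and CD mice do not overlap in any of the 4 ratios, and FD female 3 is the highest for Gm13341 per count of Gm13340 at 0.932. The listed copies were chosen on this contrast, and no share over all genes was computed for such ratios. All windows of mt-Co2 have an exact nuclear copy, so its counts do not give its RNA level.

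The 15 mitochondrial protein-coding and rRNA genes fell apart by how far their sequence is copied in annotated nuclear transcripts. In mt-Co2, mt-Atp6, mt-Co3, mt-Nd3 and mt-Nd4l, between 98.0% and 100% of the 50-base windows had an exact nuclear copy, and these 5 genes had 0 to 60 counts per mouse. Another 9 genes, with 0% to 62.2% of windows copied (highest in mt-Nd4), had 14943 to 404068 counts per mouse. Per length, the mean count was 9.40 to 39.1 per kb in the first group and 48227 to 146920 per kb in the second. The single exception was mt-Atp8, with 5 to 20 counts per mouse and 0% of its windows copied in annotated transcripts. It lies between mt-Co2 and mt-Atp6, and the nuclear copies of these, Gm28661 and Gm10925, leave 234 bp between them on chromosome 1 that no annotated gene covers. On chromosome 1, a row of pseudogenes (Gm28439, Gm10222, Gm28438, Gm28437, Gm10925, Gm28661 and Gm29216) matches this stretch at 99.7% to 100%, with 1 substitution each in Gm28438 and Gm29216 and 0 in the others, and of these Gm10222 has a row in the tables. Exact windows also lie on chromosome 2, 224 of them in Gm13341 and 411 in Gm13340. The part that reads of several places play in these counts was not tested.

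**Figure D4:**
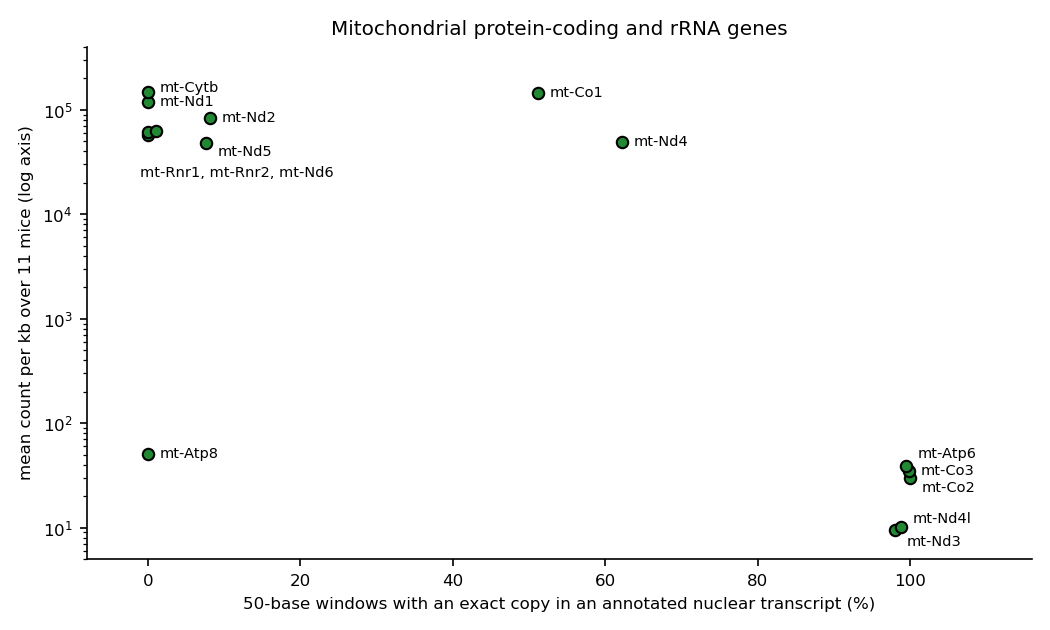
Mean count per kb over the 11 mice (log axis) of the 15 mitochondrial protein-coding and rRNA genes against the percentage of their 50-base windows with an exact copy in an annotated nuclear transcript. The 5 genes at 98.0% or more lie at 9.40 to 39.1 counts per kb, 9 others lie at 48227 or more, and mt-Atp8 lies low with 0% copied.

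No mitochondrial gene passed between the diets. Of the 37 genes, 29 passed the count filter and 0 passed the adjusted p threshold, with 1 at an unadjusted p under 0.05 and 0 passing in DESeq2 (adjusted over all genes in both). Over all genes the shares were 14 of 20589 (0.068%) and 534 of 20589, so that few calls or none in a list of 29 are near the background. Their median log2 fold change was -0.03, against -0.004 over all genes tested. Among the 15 protein-coding and rRNA genes, 4 lay above 0 and 11 below, from 0.06 for mt-Co3 (standard error 0.199) to -0.73 for mt-Nd4l (standard error 0.519), a gene with 0 to 5 counts. The counterparts of the nuclear copies had log2 fold changes of -0.03 for mt-Co2 (standard error 0.204), -0.01 for mt-Co1 and -0.03 for mt-Cytb, each with an adjusted p of 1 (edgeR). The value for mt-Co2 rests on few counted reads, since all its windows have an exact nuclear copy. Counts on the mitochondrial genome made up 4.03% ± 0.117 (SD, n = 5) of all counts on genes in FD and 4.05% ± 0.311 (SD, n = 6) in CD mice, with FD minus CD at -0.017 percentage points (two-sided exact permutation test, p = 0.916, with 0.002165 the smallest p possible).

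Within the CD group alone, the level of each copy was compared with that of its counterpart over the 6 mice (log2 CPM, 4 relations, exact permutation tests). Pearson's r was 0.85 for Gm13340 with mt-Co1 (p = 0.0597, adjusted p = 0.119) and Spearman's rho 0.54 (p = 0.297). For Gm11410 with mt-Cytb, r was 0.83 (p = 0.0528, adjusted p = 0.119) and rho 0.60 (p = 0.242), all by exact permutation. Without the 2 mice farthest from the median of the counterpart, r fell to 0.05 for Gm13340 and -0.40 for Gm11410. Among the 6 CD mice, each relation thus rests on its 2 farthest mice (CD female 1 and CD male 3 for Gm13340, CD female 1 and CD female 3 for Gm11410). With 1 mouse left out, r for Gm13340 ranged from 0.20 (without CD female 1) to 0.98 (without CD female 3). That for Gm11410 ranged from 0.67 (without CD female 1) to 0.94 (without CD female 2). Over all 11 mice, after subtracting the group mean, r was 0.79 for Gm13340 and 0.70 for Gm11410. In that setting it was 0.14 for Gm13341 and -0.11 for Gm10222. For Gm13341 with mt-Co2, r was 0.02 (p = 0.971, adjusted p = 0.971) and rho -0.26 (p = 0.658), and for Gm10222 with mt-Nd4l r was -0.59 (p = 0.213, adjusted p = 0.283) and rho -0.26 (p = 0.658) in the same exact permutation tests. Without the 2 farthest mice, r was 0.72 for Gm13341 and -0.33 for Gm10222. With 1 mouse left out, r for Gm13341 ranged from -0.83 (without CD female 1) to 0.45 (without CD male 2), and r for Gm10222 from -0.78 (without CD male 1) to -0.09 (without CD female 3). None of the 4 relations over the 6 CD mice passed an adjusted p of 0.1. In mt-Co2 and mt-Nd4l all or nearly all windows have an exact nuclear copy, so the levels used for these counterparts rest on few counted reads. CD female 1 had both the highest mitochondrial share of counts, 4.43%, and the highest share of reads with several places, 16.0%, of the 11 mice, and the highest levels of Gm13341, Gm13340 and Gm11410 in the CD group. The part of either share in these levels was not tested.

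Sex, a contrast that the choice of genes did not use, was tested with diet in the model. Of the 20589 genes, 1257 (6.11%) differed between males and females, and 0 of the 4 nuclear copies did (edgeR's quasi-likelihood test, 0 at an unadjusted p under 0.05, 0 with DESeq2, which gave no adjusted p for Gm11410 and Gm10222). The male minus female difference was -0.23 for Gm13341 (log2, standard error 0.137, adjusted p = 0.369, edgeR). It was -0.06 for Gm13340, -0.15 for Gm11410 and 0.20 for Gm10222, with standard errors of 0.106, 0.249 and 0.455. Of the 29 mitochondrial genes tested, 1 passed, mt-Nd2, with a male minus female difference of -0.18 (log2, standard error 0.0477, adjusted p = 0.0754, edgeR). It passed in 2 of the 11 fits that left out a mouse, those without CD female 2 or FD female 2. DESeq2 called 4 of the 29 mitochondrial genes between the sexes, and 2043 of all 20589 genes.

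The diet difference was then compared between the sexes. For Gm13341 the FD minus CD log2 difference was 1.18 in females and 1.56 in males, for Gm11410 1.06 and 1.67, and for Gm13340 0.23 and 0.54, with the larger value in males for each. Fitted in each sex alone, 2 genes of all those tested were called in males and 1 in females. Gm13341 was among those called in males and not in females, and Gm11410 in neither. The genes were chosen on this contrast and the groups are small, so nothing is read from these calls. The interaction term was 0.37 for Gm13341 (standard error 0.269), 0.60 for Gm11410 (standard error 0.496) and 0.30 for Gm13340 (standard error 0.209), each with an adjusted p of 1 (edgeR), so that no difference between the sexes was shown. These terms depended on single mice. Without CD female 1 they were 0.06 for Gm13341, 0.32 for Gm11410 and 0.10 for Gm13340, and for Gm11410 the term was 0.20 without FD male 2 and 1.01 without FD male 1. Gm10222 turned from 0.22 in females to -1.70 in males, with an interaction of -1.92 (standard error 0.974, adjusted p = 1, edgeR) at counts of 1 to 14. Its interaction was -3.01 without CD female 1 and -1.23 without FD male 1. Over all 20589 genes, 0 (0%) passed for the interaction, in edgeR and in DESeq2, with 391 at an unadjusted p under 0.05.

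Other nuclear copies of mitochondrial sequence were found from the transcript sequences of annotated pseudogenes alone, by blastn matches of at least 100 bp at 80% identity or more. Beside the 5 named genes there were 23, of which 6 had a row in the tables, and these 6 passed the count filter. Of these 6, 0 passed between FD and CD mice (edgeR, 1 at an unadjusted p under 0.05, 0 with DESeq2), where 0.068% of all genes passed, so that 0 of 6 is near the background. Their median log2 fold change was 0.26, with 5 above 0 and 1 below. Gm13339 (chr2:22590024-22590533), a copy of mt-Nd2 that continues the row of Gm13341 and Gm13340 377 bp further on, had 6 to 17 counts per mouse and differed by 0.03 (log2, standard error 0.293). Its levels were 0.481 ± 0.157 CPM (SD, n = 5) in FD and 0.485 ± 0.182 CPM (SD, n = 6) in CD mice. On chromosome 4, Gm11408 (a copy of mt-Nd6, 75 bp from Gm11410) and Gm11407 (a copy of mt-Nd5) stand beside Gm11410 in the order of the mitochondrial genome. Their log2 fold changes were 0.41 (standard error 0.338) and 0.71 (standard error 0.392), with an adjusted p of 1 (edgeR), and the groups overlapped for both. Gm11512, a copy of mt-Co1 on chromosome 11, had the largest value, 1.58 (standard error 0.443, adjusted p = 0.701, edgeR), at 0 to 4 counts in CD and 2 to 9 in FD mice. Gm4076, a copy of mt-Nd5 on chromosome 13, had 0.10 (standard error 0.319). Gm12155, a short copy of mt-Co2 with 15 counts in all, had -0.92 (standard error 0.788).

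**Figure D5:**
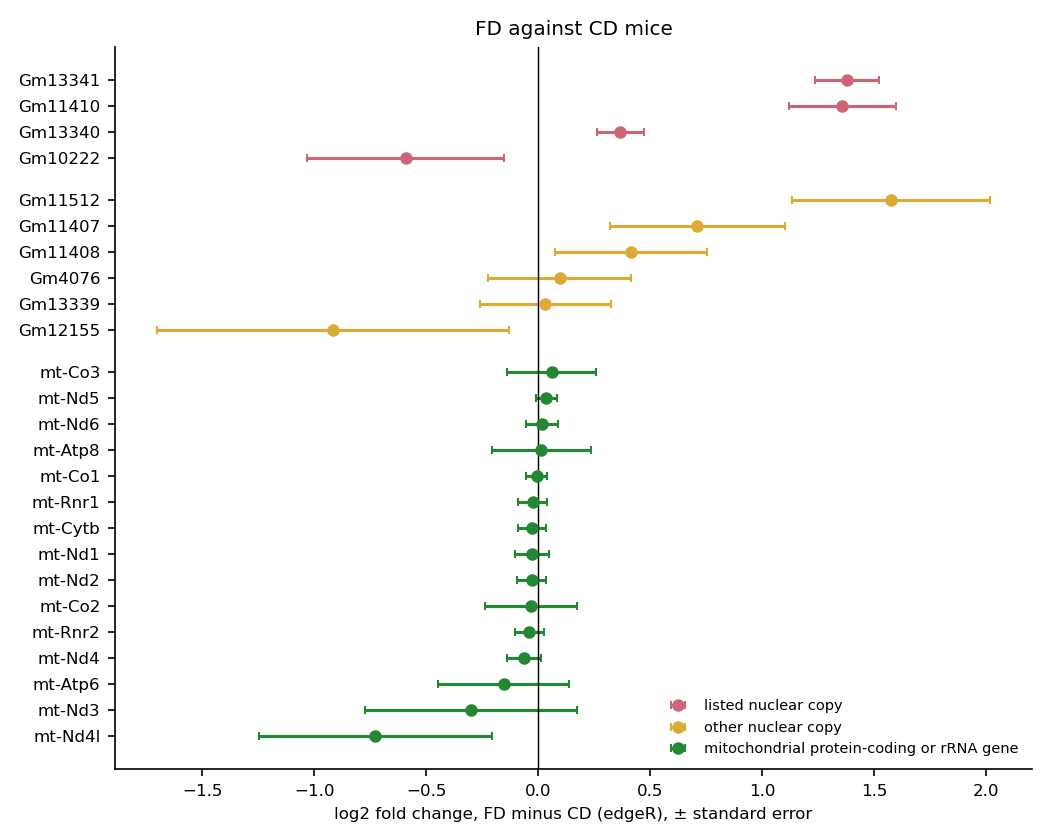
FD minus CD log2 fold changes (points) with standard errors (bars) for the 4 listed nuclear copies, the 6 other nuclear copies and the 15 mitochondrial protein-coding and rRNA genes, from edgeR over all genes. Gm13341 and Gm11410 lie at 1.38 and 1.36, and the mitochondrial genes with high counts lie close to 0; the listed copies were chosen on this contrast.

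The protein-coding genes around the nuclear copies did not pass between the diets (adjusted p = 1 each, edgeR). Myo3a, whose intron holds Gm13341 and Gm13340, had 0 to 4 counts per mouse. Gad2, which encodes a GABA-synthesizing enzyme and lies 34243 bp from Gm13341, differed by 0.08 (log2, standard error 0.053). Gpr158, an orphan receptor gene on the other side, differed by 0.0002 (standard error 0.0547), and Ptprd and Tyrp1 around Gm11410 by 0.06 and 0.48. Col19a1 and Lmbrd1 around Gm10222 differed by 0.28 and 0.0007. Levels of the neighbouring pseudogenes Gm13342 and Gm11406 were at 0 in all mice, which allows up to 3 counts in each.

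Over the 11 mice, the genes whose levels were most like those of each copy were sought among 15998 genes with a mean of at least 10 counts (Pearson's r of log2 CPM, given as a description, since the diet groups and library depth are shared by all points). For Gm13341 they were Gm4707 (r = 0.97), Gm7251 (0.94) and Gm11410 (0.93). For Gm11410 they were Gm9575 (0.95), Gm4707 (0.95) and Gm13341 (0.93), and for Gm13340 Zcchc24 (0.90), Gm13341 (0.87) and Gm9575 (0.86). For Gm10222 they were Sdhaf3 (0.89), Khdrbs2 (0.87) and Sstr2 (0.85). Gm7251 and Gm9575 are processed pseudogenes, while Gm4707 is annotated as protein-coding.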

How the data were processed

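RNA-seq counts of 11 hippocampi were used. Per the study's methods, STAR aligned the trimmed reads to GRCm38 (mm10) and featureCounts assigned them to genes. The authors deposited raw counts for each mouse, with 5 summary lines of unassigned reads. These lines have the form of another counting tool, HTSeq, so which tool made the counts is uncertain. They held 24.4% to 26.9% of the aligned reads, if each read is listed once, and stayed out of library sizes and tests. The annotation release and strand setting are not given in the sources used here, so reads of overlapping or near-identical genes may be split. Of 38293 identifiers, 36345 (94.91%) matched GENCODE M21. Groups, sexes and numbers came from the sample titles.

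Counts were fitted with edgeR 4.0.16 in R 4.3.3 (TMM, at least 10 counts in all, quasi-likelihood test, Benjamini-Hochberg adjustment, threshold 0.1), with DESeq2 1.42.0 as an alternative. Standard errors are the log2 fold change over the square root of F. CPM values use TMM library sizes, with a prior count of 2 for log2 values, except those of the marker genes, which use total counts on genes without TMM. Pairwise chi-square of counts per degree of freedom was 4.13 to 28.2 within groups, so each mouse was 1 replicate. Depth sets a floor of 3 counts, and counts carry counting error only beside the spread between mice.

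The mitochondrial genome (15365 bases) was rebuilt from its transcripts, since no genome sequence was used. Transcripts of annotated nuclear pseudogenes were searched with blastn 2.17.0, and all 141767 transcripts for exact windows of 50 bases. Unannotated copies were not searched, nor were transcripts of other gene types with blastn. Biopython 1.88 made the alignments, Python 3.11.15 with pandas 2.3.3 and scipy 1.17.1 the tables, and matplotlib 3.10.9 the figures.

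The nuclear copies, gene lists and tests were chosen with earlier results of these data known. Named genes are the copies, their best mitochondrial match, their nearest annotated genes, up to 5 other nuclear copies with the most counts, the 3 genes most like each copy, and the marker lists. Gm12155 was named after its values were seen. As a check of the pairing by sex and number, deviations from the group mean correlated with r of 0.21 to 0.43 in all 5 pairs, and with 0.02 to 0.30 after sex was also removed. Before sex was removed, FD male 1 was most like CD male 3 and FD female 3 most like CD female 1, not the CD mice of their own number. The titles do not say that mice of a number belong together.

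Alternatives were other normalizations, tests and filters, the replicate block, sex in the model, females and males alone, mitochondrial counts left out and each mouse left out.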

Additional observations from a re-analysis of the deposited data

Results flagged for a closer look

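A value far from the rest of its group was looked for in 38 groups of 5 or 6 mice (Dixon's criterion), and 5 were found, where chance gives about 1 in 20 groups. CD female 1 stood above the other CD mice for Gm13341, at 2.83 CPM with 1.93 CPM as the next value, and for Gm13340, at 6.72 CPM with 5.40 CPM as the next. Without CD female 1, the log2 fold change was 1.55 for Gm13341 and 0.46 for Gm13340. FD female 3 stood below the other FD mice for Gm13340, at 6.09 CPM with 6.93 CPM as the next value, and above them for the ratio of Gm13341 to Gm13340, at 0.932 with 0.725 as the next. For Gm4076, FD female 2 was at 0.685 CPM with 0.349 CPM as the next value, from 9 counts. The cause of these values was not tested.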

How the results depend on the processing

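Gm13341, Gm13340 and Gm11410 were higher in FD mice under every alternative that gave a value, with log2 fold changes of 1.33 to 1.55, 0.34 to 0.46 and 1.25 to 1.53 when each mouse was left out. That of Gm13340 was 0.54 in males alone. Gm10222 was 0.22 in females alone and -1.70 in males alone, and -0.90 to -0.37 with a mouse left out. Paired by the replicate block, the values were 1.35, 0.35, 1.26 and -0.39 for Gm13341, Gm13340, Gm11410 and Gm10222, and the call of Gm11410 was lost. The block left out CD male 3, which has no partner. Without CD male 3 and without pairs, Gm11410 was at 1.28 and its call was lost as well. The part of the pairing itself in this loss was not tested. The block was run for the FD against CD fits and the mitochondrial share, and not for the sex and interaction contrasts. The number of genes passing between FD and CD mice was 14, against 23 with the replicate block, 1 with at least 10 counts in every mouse, 1 in females alone, 2 in males alone and 3 to 12 with a mouse left out. Between the sexes 1257 genes passed, against 2043 with DESeq2, 2645 without a count filter and 18 to 3244 with a mouse left out. For the interaction 0 passed, against 10 without a filter and 0 to 1 with a mouse left out. The mitochondrial genes and the other nuclear copies kept 0 calls under all alternatives run. The mitochondrial share differed by -0.09 percentage points over the 5 pairs, which leave out CD male 3 (exact sign-flip permutation test, p = 0.5). Without CD male 3 and without pairs, it differed by the same -0.09 percentage points (two-sided exact permutation test, p = 0.508). With at least 10 counts in every mouse, Gm11410, Gm10222 and the other nuclear copies were not tested. The causes were not tested. Counts of 1 to 29 per mouse limit what can be said of Gm11410 and Gm10222.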
